A study of Homo sapiens with 10 samples.

Results

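The genes described here encode proteins that read, write, erase, move or hold together chromatin. They were chosen by name alone, as every gene of the m6A peak lists whose symbol begins with CBX, CHD, KDM, KMT, SMC, HDAC, BRD, ARID, NCOA or NCOR and a digit, or with SMARC, DNMT, SETD or EZH, together with WAPL. Of 5000 gene names with a peak in any of 7 lists, 57 were of this kind. One of the 57 lies on chromosome Y; it is included in the counts and is not described. All 57 matched a protein-coding gene of the RefSeq annotation (GRCh38.p14), and no antisense or clone name was caught.

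N6-methyladenosine (m6A) is a methyl mark that a nuclear enzyme complex places on adenosines of messenger RNA, mostly within a short motif and often near stop codons and in long exons; it influences splicing, export, translation and decay. Chromatin regulators act at several levels: cohesin is a ring, built on SMC1A and SMC3, that holds sister chromatids together and extrudes DNA loops; HP1 and Polycomb proteins keep genes silent; remodellers slide or evict nucleosomes; and pairs of opposing enzymes add and remove methyl and acetyl groups on histones. In prostate cancer many of these proteins also serve as cofactors of the androgen receptor.

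The assay was MeRIP-seq: RNA fragments carrying m6A are captured with an antibody, and captured and uncaptured RNA (the input) are both sequenced. The cells of every group were labelled as V16A, a castration-resistant prostate cancer line, meaning one that grows without androgens. Total RNA was taken from cells kept in hypoxia (2 pulled-down libraries and their inputs) or in normoxia (2 and their inputs), and from 1 pulled-down library and its input labelled EU and 40 min. EU is taken to mean ethynyl uridine, which cells build into RNA as they transcribe it; the labels give neither its oxygen condition nor the oxygen level or duration of the other groups. The labels do not say whether replicates came from separate cultures, so a p-value over libraries measures only their spread, which may be technical.

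Each library is represented by a list of called peaks, which are the stretches of exon where pulled-down RNA exceeded the caller's threshold. The lists hold no read counts, so depth is unknown, and for a gene without a peak, absence of the mark, of the transcript and of reads cannot be told apart. The lists differed greatly in length, from 212 peaks in normoxia replicate 1 to 6621 in hypoxia replicate 2, with 2879 in hypoxia replicate 1, 1563 in normoxia replicate 2 and 5044 for EU. Normoxia replicate 1 stood apart from the other libraries and held no peak in any of the 57 genes. The other 2 lists, of 7669 and 2285 peaks, give peaks for hypoxia and for normoxia as a whole. Defining markers of other cells were looked up in the same lists. Among 14 T and NK cell markers, 9 and 11 were called in hypoxia replicates 1 and 2, 4 and 0 in normoxia replicates 1 and 2 and 10 in the EU library, with no peak in CD4 in any list. Of 10 prostate and epithelial markers, 1 and 3 were called in hypoxia, 0 and 4 in normoxia and 7 in the EU library, and FOLH1, KRT8 and KRT18 had none. None of 4 B cell markers was called in any list. Of 5 macrophage markers, CD68 alone was called, in the hypoxia condition list. Among 5 fibroblast and endothelial markers, PECAM1 alone was called, in hypoxia replicate 2 and the hypoxia condition list. By number called, the T cell markers, like the chromatin genes below, were higher in both hypoxia libraries than in either normoxia library. These numbers take no account of list length. The 9 and 11 were of 1258 and 2151 genes with a peak in hypoxia replicates 1 and 2. The 4 and 0 were of 139 and 897 in normoxia replicates 1 and 2, and by share normoxia replicate 1 was highest. T and NK cell markers are not markers of the labelled prostate line. Their part in the results, and that of any difference in cell content between libraries, was not tested.

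The number of chromatin and cohesin genes with a peak was 16 in hypoxia replicate 1 and 29 in hypoxia replicate 2, against 0 in normoxia replicate 1 and 14 in normoxia replicate 2. The EU library held 30. Both hypoxia libraries exceeded both normoxia libraries, although 16 and 14 lie close together. On the scale log2(genes + 1) hypoxia averaged 4.50 ± 0.58 and normoxia 1.95 ± 2.76 (SD, n = 2 each), and the means differed by 2.54 (exact two-sided permutation p = 0.333, the smallest that 2 against 2 libraries allow). Without normoxia replicate 1 the difference was 0.59.

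As a share of all genes with a peak in the same library, which takes account of list length, the values of the conditions overlapped. The share was 1.27% (exact binomial 95% interval 0.729 to 2.06%) in hypoxia replicate 1 and 1.35% (0.905 to 1.93%) in hypoxia replicate 2. It was 1.56% (0.856 to 2.60%) in normoxia replicate 2 and 1.26% (0.849 to 1.79%) for EU. The 0 of 139 genes in normoxia replicate 1 allows a share of up to 2.16% (3 genes of 139; the exact binomial interval reaches 2.62%). The means differed by 0.530 percentage points (1.31 ± 0.054% in hypoxia and 0.780 ± 1.10% in normoxia, SD, n = 2 each; exact two-sided permutation p = 1). Without normoxia replicate 1 the difference was -0.251 points, in the other direction, as it was between the condition lists (-0.0212 points). These intervals cover counting error only.

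The chromatin genes carried more peaks each in both hypoxia libraries than in the others. Hypoxia replicate 1 held 68 peaks in its 16 genes (4.25 per gene) and hypoxia replicate 2 held 138 in 29 (4.76 per gene). Normoxia replicate 2 held 26 peaks in 14 genes (1.86 per gene) and the EU library 71 in 30 (2.37 per gene). Over all genes with a peak the same libraries gave 2.29, 3.08, 1.74 and 2.11 peaks per gene. The distance between chromatin genes and all genes was thus wide in both hypoxia libraries and small in normoxia replicate 2 and EU, a description that was not tested. The hypoxia mean of 4.50 ± 0.36 (SD, n = 2) exceeded the single normoxia value by 2.65 peaks per gene (exact permutation p = 0.333, the smallest for 2 against 1, since normoxia replicate 1 had no peak to count). Joining peaks that lay within 100 bases of each other, a choice made after seeing the data, gave a difference of 2.51; counting only peaks no narrower than 151 bases, the median width, gave 0.607, and libraries cut to 212 peaks gave 0.333. The 8 genes with a peak in both hypoxia replicate 2 and normoxia replicate 2 had 3.25 and 2.13 peaks per gene there, whereas the 21 genes of hypoxia replicate 2 that were missing from normoxia replicate 2 had 5.33. Over all genes the same split gave 2.96 and 1.91 in genes called in both, and 3.10 in the rest of hypoxia replicate 2. The chromatin genes were longer (median span 70.9 kb against 23.7 kb for all listed genes), and the part of length in peaks per gene was not tested.

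**Figure D1:**
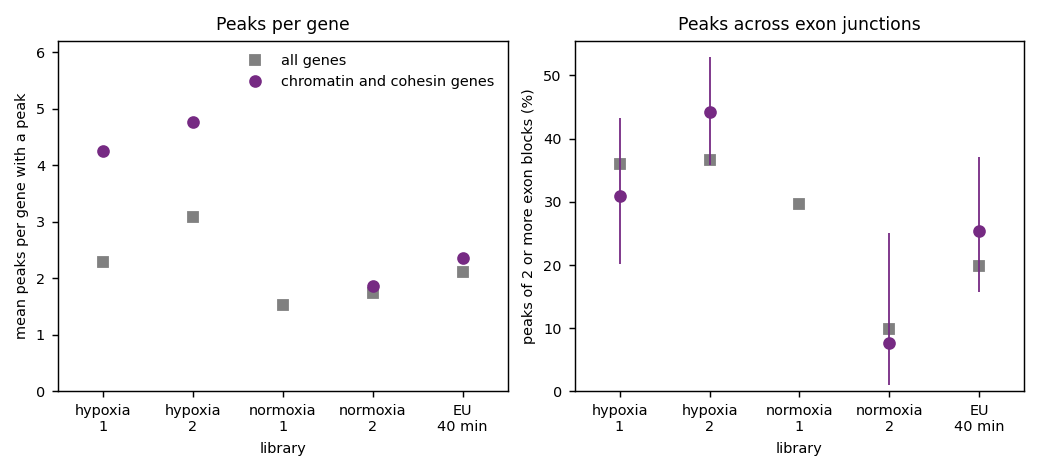
Left, mean number of called peaks per gene with a peak in each of the 5 pulled-down libraries, for the chromatin and cohesin genes (circles) and for all genes (squares). Right, percent of peaks that span 2 or more exon blocks, with exact binomial 95% intervals (lines) for the chromatin and cohesin genes. Circles stand at 4.25 and 4.76 peaks per gene in hypoxia and at 1.86 in normoxia replicate 2; normoxia replicate 1 has no circle because it held no peak in these genes.

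The 4 hypoxia and normoxia libraries together called 38 of the genes, and 7 of these (18.4%) had a peak in both hypoxia libraries and in neither normoxia library. They were WAPL, SMC1A, SMC3, CBX5, DNMT1, CHD4 and NCOA2. Over all 3226 genes called in these 4 libraries, 492 (15.3%) showed this pattern, so the share was near the background. None of the 38 showed the reverse pattern, which 5 of 3226 genes (0.155%) showed. As normoxia replicate 1 held no peak in any of these genes, this count could only be 0. A further 14 genes had a peak in hypoxia replicate 2 alone of the 4 libraries, and 3 (KDM2A, KMT5B and SETD2) in hypoxia replicate 1 alone. In 3 genes, ARID1A, BRD3 and KDM6A, normoxia replicate 2 had a peak and no hypoxia library did, and 11 genes had peaks in both conditions. The counts of 14, 3, 3 and 11 have no share over all genes beside them. They therefore cannot be told apart from the differing list lengths. Leaving out hypoxia replicate 1 raised the count of 7 to 21 of 35 (60%), beside 63.7% of all genes. Leaving out normoxia replicate 1 raised the reverse count from 0 to 3, again ARID1A, BRD3 and KDM6A, with no share over all genes beside it. With the 50% of peaks of smallest p in each list the 7 became 3 of 23 (13.0%, beside 9.10% of all genes). With every library cut to 212 peaks they became 2 of 6 (33.3%, beside 14 of 447 genes, 3.13%), so the nearness to the background did not hold at that length, where 6 genes were left.

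**Figure D2:**
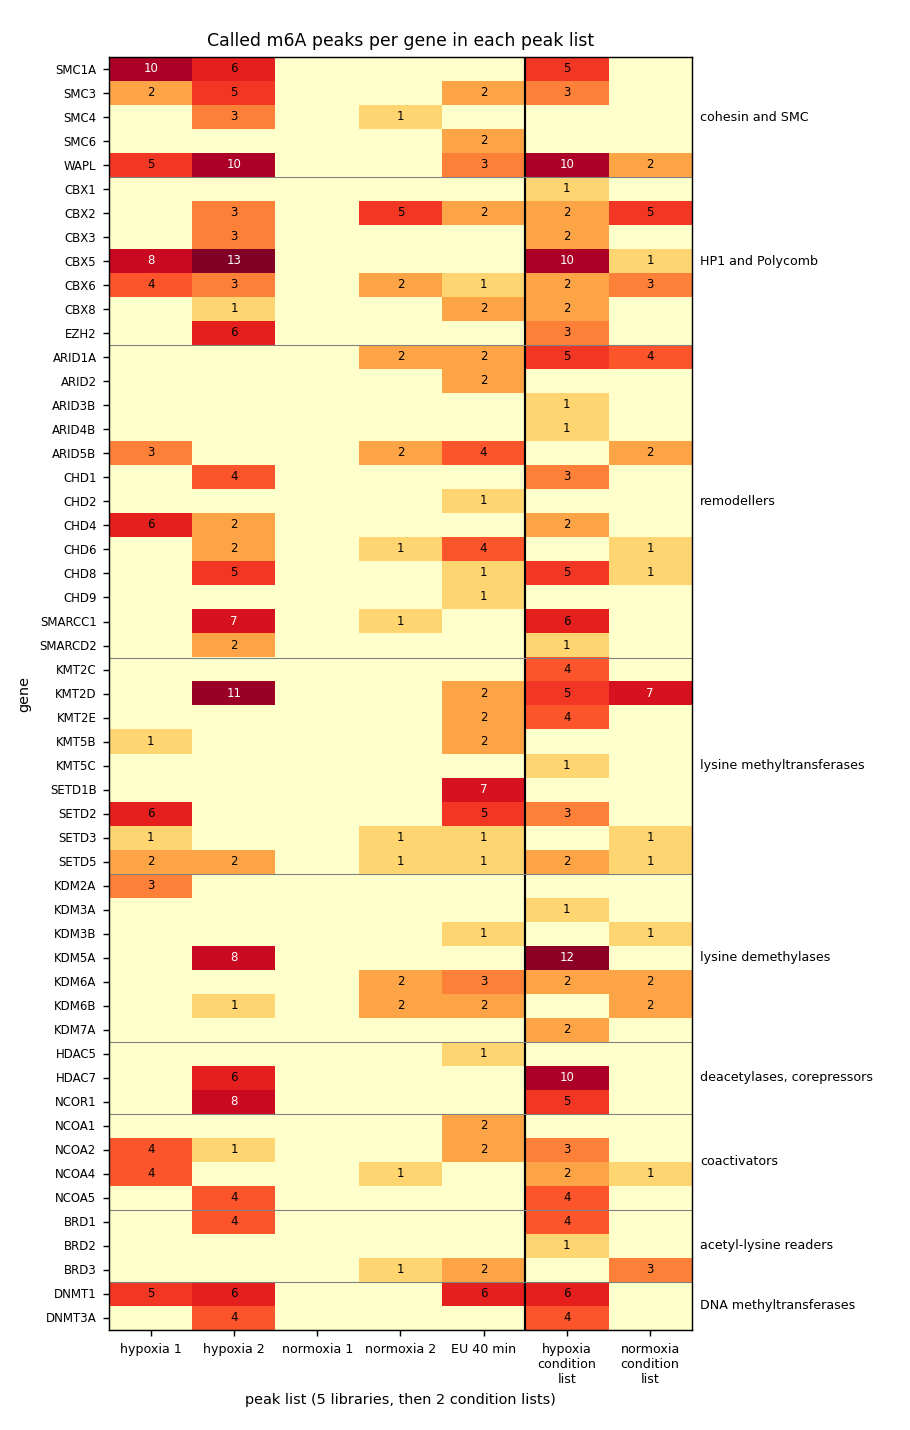
Number of called m6A peaks in each gene described (rows, grouped by role) in the 5 pulled-down libraries and, right of the black line, the 2 condition lists (columns); colour deepens with log2(peaks + 1) and blank cells hold no peak. The normoxia 1 column is empty, the rows of WAPL, SMC1A and CBX5 are filled in both hypoxia columns and blank in both normoxia library columns, and CBX6 and SETD5 are filled in every library but normoxia 1.

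The cohesin genes WAPL, SMC1A and SMC3 carried 5.67 and 7 peaks per gene in the hypoxia libraries, beside 2.29 and 3.08 over all genes. They had none in either normoxia library, but normoxia replicate 1 held no peak in any gene described. All 3 belong to the 7 of 38 genes (18.4%) called in hypoxia only, a share near the 15.3% of all genes. WAPL, the factor that opens the ring and releases cohesin from DNA, had 5 peaks in hypoxia replicate 1, 10 in hypoxia replicate 2 and 3 in the EU library. SMC1A, an ATPase arm of the ring, had 10 and 6 peaks in the hypoxia libraries and none in EU. SMC3, the partner arm, had 2 and 5 in hypoxia and 2 in EU. Together the 3 genes had 17 and 21 peaks in hypoxia, 0 in both normoxia libraries and 5 in EU. The normoxia condition list held 2 peaks in WAPL, so normoxia was not without a call there. In SMC1A (chromosome X, minus strand) the peaks were short exon pieces joined over introns: 13 of its 16 library peaks had 2 or more exon blocks. A peak starting at 53413079 was called in both hypoxia libraries (deposited p-values of 2.9e-06 and 0.00015), and so was one starting at 53405580. SMC3 also had mostly such peaks, 6 of 9.

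WAPL differed in layout from the SMC genes. Its longest peak covered 599 bases of one exon block at chr10:86499771-86500369 in hypoxia replicate 1, centred at 25.1% of the gene span. Hypoxia replicate 2 had 2 peaks within the same stretch and the EU library 1 of 550 bases. Both hypoxia libraries also called a peak at the very start of the gene (centre at 0.1% of the span), with deposited p of 4.5e-07 and 1.4e-07.
The other SMC genes belong to condensin and to the SMC5/6 repair complex. SMC4, a condensin arm, had 3 peaks in hypoxia replicate 2 and 1 in normoxia replicate 2, all of which also lie over another annotated gene, TRIM59-IFT80; the sources used here do not say whether the authors' calling used strand. SMC6 had 2 peaks, both in the EU library. SMC2, the partner of SMC4, had no peak in any list.

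Peaks at a gene's start are of interest because there the mark lies beside the cap and the promoter. Hypoxia replicate 1 had such a peak, within 300 bases of the annotated start, in WAPL, hypoxia replicate 2 in genes that included CBX3, EZH2, NCOA5, SMC3 and WAPL, and the EU library in none. For 4 of them the stretch of the peak nearest the start, at most 30 bases, is given on the gene's strand from RefSeq (GRCh38.p14), with the letters GAC, the core of the m6A motif, in capitals. The stretches are chr10:86521743-86521765 (minus) for WAPL, called in both hypoxia libraries, and, called in hypoxia replicate 2 alone, chr7:26201461-26201490 (plus) for CBX3, chr7:148884276-148884305 (minus) for EZH2 and chr20:46089923-46089952 (minus) for NCOA5.
WAPL: aggaggtgggggccgggagcgca
CBX3: gccaagcagaaaagccaccgctgaggaGAC
EZH2: gattgggctgccgcgtttggcgctcggtcc
NCOA5: cggccgccattgcctcgtgcccgcgccggt
The EZH2 stretch begins 14 bases before the annotated start. GAC was present on the gene's strand in CBX3 and in none of the other 3 stretches; EZH2 holds it once on the opposite strand. Among 35116 RefSeq windows around gene starts, the same offsets held GAC on the gene's strand in 23.8% (WAPL), 30.7% (CBX3), 30.1% (EZH2) and 31.4% (NCOA5), and on either strand in 44.1%, 53.0%, 53.6% and 53.5%. The rest of each peak lies outside the stretch shown.

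The chromobox family had 7 of its 8 RefSeq coding genes in the lists (87.5%). This stands beside 46% of coding genes with symbols of all these families and 22% of all coding genes. Its HP1 branch was called in hypoxia libraries, by way of CBX5 and, in replicate 2 alone, CBX3. In its Polycomb branch, genes that included CBX2 and CBX6 were called in libraries of both conditions, and CBX8 in no normoxia library. CBX5, the HP1 alpha protein that binds methylated histone H3 in heterochromatin, had the most peaks of any gene here in a single library: 13 in hypoxia replicate 2, with 8 in hypoxia replicate 1, 0 in both normoxia libraries and 0 in EU. The hypoxia condition list held 10 peaks in it and the normoxia list 1. In both hypoxia libraries the peaks lay in the last part of the gene (chromosome 12, minus strand), with centres from 67.1% to 98.7% of the span. One run of single-block peaks reached from 54231540 to 54241632, and one peak of 3 exon blocks ended at 54252366 in replicate 1 and at 54252166 in replicate 2. The peak at chr12:54241532-54241632 had the same borders in both (deposited p-values of 3e-07 and 1.5e-07). CBX3, HP1 gamma, had 3 peaks in hypoxia replicate 2 only, and CBX1, HP1 beta, 1 peak in the hypoxia condition list and none in a library. The 3 HP1 genes together had 8 and 16 peaks in hypoxia and none in normoxia or EU libraries.

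The Polycomb CBX proteins bring the PRC1 complex to methylated histone H3. Their genes called in both conditions included CBX6 and CBX2, but not CBX8, and CBX7 had no peak in any list. CBX6 had 4 peaks in hypoxia replicate 1, 3 in hypoxia replicate 2, 2 in normoxia replicate 2 and 1 in EU. CBX2 had 0, 3, 5 and 2 in the same order. CBX8 had 1 in hypoxia replicate 2 and 2 in EU. The peaks fell on shared places. In CBX6 all 4 libraries with peaks covered parts of chr22:38866786-38867201 (minus strand). CBX2 had 2 stretches, from 79784192 to 79785090 and from 79785190 to 79785639 on chromosome 17 (plus strand), covered by hypoxia replicate 2, normoxia replicate 2 and EU. EZH2, the methyltransferase of the PRC2 complex, differed from CBX6 and CBX2: it had 6 peaks in hypoxia replicate 2 (4 of more than 1 exon block), 3 in the hypoxia condition list and none elsewhere.

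**Figure D3:**
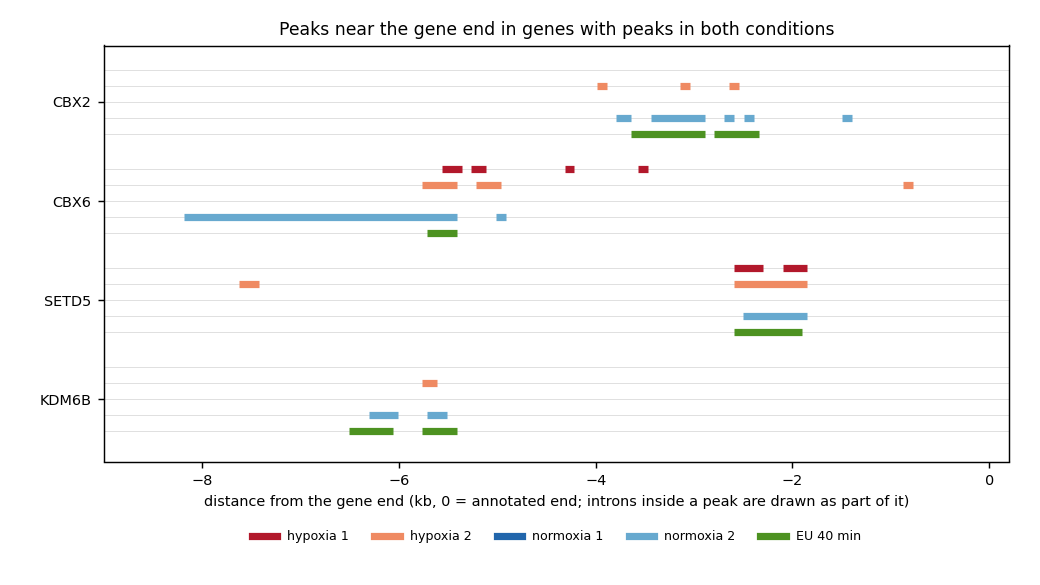
Called peaks (bars, width to scale) in the last 9 kb of 4 genes, by distance from the annotated gene end in kb, with 1 line per library in the order of the key. In CBX6 and SETD5 the bars of the 4 libraries with peaks overlap at one place; the normoxia 1 line is empty in all 4 genes.

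Among chromatin remodellers 13 of 34 RefSeq coding genes had a peak, and 1, CHD4, was called in both libraries of a condition. CHD4, the ATPase of the NuRD complex, had 6 peaks in hypoxia replicate 1 and 2 in replicate 2, and none in normoxia or EU; 1 of the 6 lies over an antisense gene, CHD4-AS1. CHD1, which binds the methyl mark of active promoters, had 4 in hypoxia replicate 2 only. CHD6 had 2 in hypoxia replicate 2, 1 in normoxia replicate 2 and 4 in EU. CHD8 had 5 in hypoxia replicate 2 and 1 in EU. CHD2 and CHD9 each had 1 peak, in EU, at 97.5% and 98.9% of the span. SMARCC1, a core subunit of the SWI/SNF complexes, had 7 in hypoxia replicate 2 and 1 in normoxia replicate 2. Of 13 RefSeq coding SMARC genes, 2 (15.4%) had a peak in any list, against 22% of all coding genes, and the ATPase SMARCA4 had none.
The ARID genes, DNA-binding subunits of remodelling and other complexes, showed another pattern. ARID1A had no peak in either hypoxia library, 2 in normoxia replicate 2 and 2 in EU, although the hypoxia condition list held 5. ARID5B had 3 in hypoxia replicate 1, 2 in normoxia replicate 2 and 4 in EU. ARID2 had 2, both in EU. None of the 15 ARID peaks of the libraries spanned more than 1 exon block, against 22 of 31 SMC peaks. The families were called in different libraries: 3 of the 15 ARID peaks and 26 of the 31 SMC peaks came from hypoxia. Over all genes, peaks of more than 1 exon block made up 35.9% and 36.7% in hypoxia, 9.92% in normoxia replicate 2 and 19.8% in EU. In the hypoxia condition list, 2 of 7 ARID peaks spanned more than 1 exon block.

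The KMT and SETD names held 9 genes with a peak, of which 5 were called in the 4 hypoxia and normoxia libraries. None of the 5 was called in both hypoxia libraries and in neither normoxia library, a pattern that 15.3% of all genes showed. SETD5 was called in every library but normoxia replicate 1, with 2 peaks per hypoxia library and 1 each in normoxia replicate 2 and EU. All 4 libraries covered parts of chr3:9475557-9476304 (plus strand), at about 97% of the gene span. Hypoxia replicate 2 called it as one peak of 748 bases, hypoxia replicate 1 as 2 pieces of 300 and 250 bases, normoxia replicate 2 as 649 bases and EU as 698 bases, with deposited p between 1.4e-06 (EU) and 0.00035. KMT2D, which methylates histone H3 at enhancers, carried 11 peaks in hypoxia replicate 2, 0 in the other 3 hypoxia and normoxia libraries and 2 in EU; the condition lists held 5 for hypoxia and 7 for normoxia. SETD2, which methylates histone H3 along transcribed genes, had 6 in hypoxia replicate 1, 0 in hypoxia replicate 2 and 5 in EU. SETD3, an actin histidine methyltransferase, had 1 peak each in hypoxia replicate 1, normoxia replicate 2 and EU, all within the last 2% of the gene span. KMT5B, which methylates histone H4, had 1 in hypoxia replicate 1 and 2 in EU.

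Among the demethylases, 1 was called in normoxia replicate 2 and in no hypoxia library. This was KDM6A, which removes the Polycomb mark from histone H3, with 2 peaks in normoxia replicate 2, 3 in EU and 2 in the hypoxia condition list. Both normoxia peaks, at chrX:45063501-45063751 and chrX:45069911-45070061 (plus strand), were overlapped by EU peaks and by peaks of both condition lists. Its relative KDM6B had 1 peak in hypoxia replicate 2, 2 in normoxia replicate 2 and 2 in EU, with all 3 libraries on chr17:7849033-7849381 (plus strand). KDM5A, which removes the methyl mark of active promoters, had 8 peaks, all in hypoxia replicate 2 among the libraries, and KDM2A had 3 in hypoxia replicate 1 only. KDM3A, an oxygen-dependent histone demethylase whose gene is known to be induced by hypoxia, had 1 peak, in the hypoxia condition list (deposited p-value of 0.00025), and none in a library. KDM1A, which works through a flavin cofactor, had no peak in any list.

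Deacetylases and corepressors were seldom called. HDAC7, a class IIa deacetylase, had 6 peaks in hypoxia replicate 2 and 10 in the hypoxia condition list, none elsewhere. HDAC5, of the same class, had 1 in EU alone, and HDAC1 and HDAC2, the class I enzymes of most corepressor complexes, had none in any list. NCOR1, a nuclear receptor corepressor, had 8 in hypoxia replicate 2 and 5 in the hypoxia condition list.
Of the nuclear receptor coactivators, NCOA2 had 4 peaks in hypoxia replicate 1, 1 in hypoxia replicate 2, none in normoxia and 2 in EU, with centres between 83.6% and 92.7% of its span in the 3 libraries. NCOA4, which also guides ferritin to degradation, had 4 in hypoxia replicate 1 and 1 in normoxia replicate 2. NCOA5 had 4 in hypoxia replicate 2 only. Among the bromodomain genes, readers of acetyl-lysine, BRD1 had 4 peaks in hypoxia replicate 2 only, and BRD3 had 1 in normoxia replicate 2 and 2 in EU.
DNMT1, the enzyme that copies DNA methylation after replication, had 5 peaks in hypoxia replicate 1, 6 in hypoxia replicate 2, none in normoxia and 6 in EU. One of its peaks joined 7 exon blocks, from 10166682 to 10179917 on chromosome 19 (minus strand) in hypoxia replicate 1 and to 10179967 in replicate 2. Of its 17 library peaks, 14 had more than 1 exon block. DNMT3A, a de novo DNA methyltransferase, had 4 peaks in hypoxia replicate 2 only.

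Position along the gene was measured from 0 at the annotated start to 1 at the end, introns included, at each peak's centre. The mean over peaks was 0.631 in hypoxia replicate 1, 0.652 in hypoxia replicate 2, 0.749 in normoxia replicate 2 and 0.724 in EU. The hypoxia mean of 0.641 ± 0.015 (SD, n = 2) was below the single normoxia value, a difference of -0.108 (exact permutation p = 0.333, the smallest for 2 against 1). Over all genes the same libraries gave 0.622, 0.638, 0.653 and 0.668, a narrower range, in which EU and not normoxia replicate 2 was highest. In hypoxia 38.2% and 39.9% of the chromatin gene peaks were centred in the last 20% of the gene span, against 46.2% in normoxia replicate 2 and 50.7% in EU; over all genes these were 40.7%, 43.5%, 46.3% and 48.4%. The median position over SMC1A, SMC3 and WAPL was 0.351 and 0.422 in the hypoxia libraries. The CBX prefix as a whole gave 0.785 and 0.827.
Peaks of more than 1 exon block made up 30.9% (21 of 68) and 44.2% (61 of 138) of the chromatin gene peaks in hypoxia, 7.69% (2 of 26) in normoxia replicate 2 and 25.4% (18 of 71) in EU. Over all genes they were 35.9%, 36.7%, 9.92% and 19.8%. The share was low in normoxia replicate 2 over all genes as well.

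**Figure D4:**
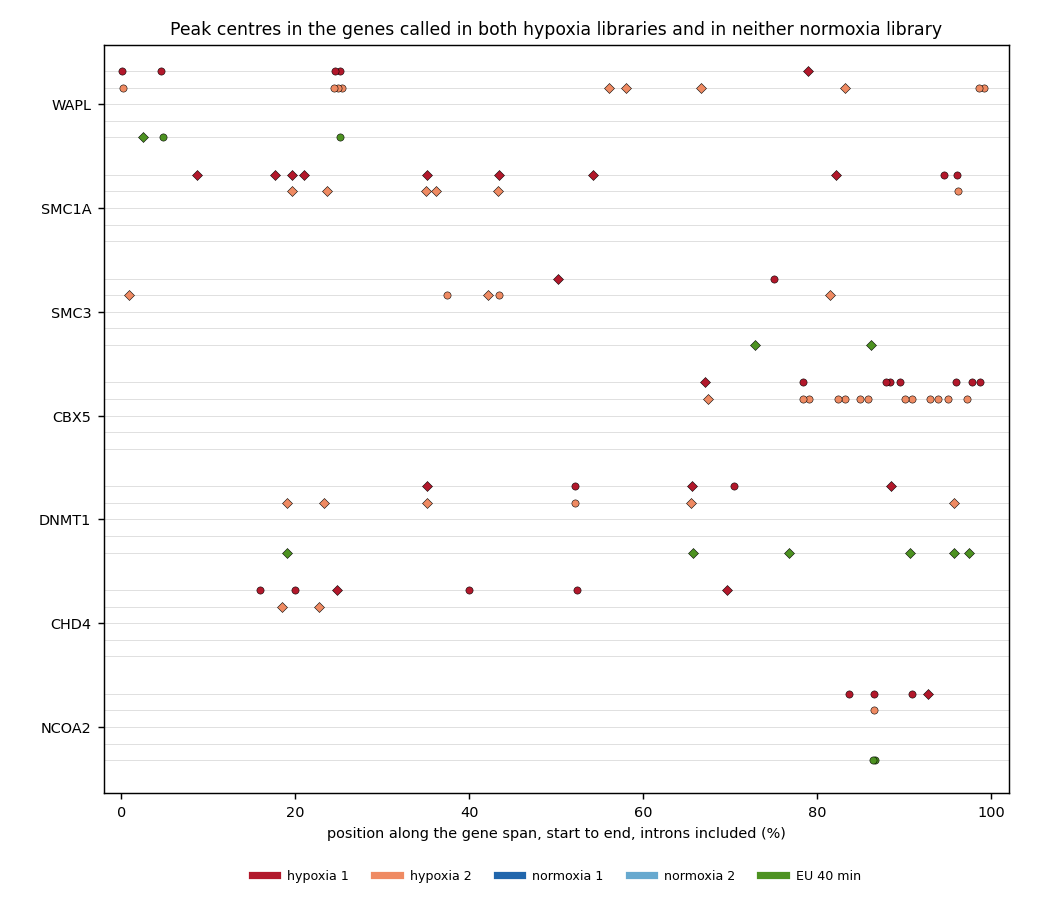
Peak centres along the gene span in percent (0 start, 100 end, introns included) for the 7 genes called in both hypoxia libraries and in neither normoxia library, with 1 line per library in the order of the key; circles are peaks of 1 exon block and diamonds of more. Peaks of CBX5 crowd the end of the gene, those of SMC1A are mostly diamonds spread along it, and the 2 normoxia lines of every gene are empty.

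Peaks in the same gene did not always fall on the same place. Of the 68 peaks of hypoxia replicate 1, 26 (38.2%, exact binomial 95% interval 26.7 to 50.8%) were overlapped by at least 1 exon base of a peak of hypoxia replicate 2, against 47.4% of all its peaks. Within the 10 genes called in both hypoxia libraries the share was 52%. Of the 26 peaks of normoxia replicate 2, 11 (42.3%, 23.4 to 63.1%) were overlapped by hypoxia replicate 2 and 20 (76.9%, 56.4 to 91.0%) by the EU library, against 28.0% and 54.1% of all its peaks. Merging overlapping exon blocks gave 349 sites in 47 genes, with the gene on chromosome Y left out. Both hypoxia libraries covered 36 of them, in 10 genes, and a hypoxia library together with normoxia replicate 2 covered 9, in genes that included CBX2, CBX6, KDM6B, SETD5 and SMARCC1. At least 3 libraries covered 11 sites, 2 each in CBX2, CBX6 and DNMT1.

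By gene, 12 of the 48 chromatin genes with a peak in a library (25%) had one in at least 3 of the 5, against 14.3% of all 4327 genes. They included ARID5B, CBX2, CBX6, CHD6, DNMT1, KDM6B, NCOA2, SETD3, SETD5, SMC3 and WAPL. Among RefSeq protein-coding genes, 58 of 126 with symbols of these families had a peak in any list (46%), against 22% of all 20052; the 58 include BRD3OS, listed under its older name LINC00094 and not counted among the 57. The chromatin genes were also longer, with a median span of 70.9 kb against 23.7 kb for all listed genes, and the part of gene length in these shares was not tested.

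In the EU library, 10 of its 30 chromatin genes (33.3%) had no peak in any of the 4 hypoxia and normoxia libraries, against 46.1% of all 2389 genes of that library. SETD1B, which writes the methyl mark of active promoters, had 7 such peaks, between 46.7% and 97.6% of its span, with a smallest deposited p of 4.2e-07. The smallest deposited p-value was 3.8e-07 in HDAC5; CHD2, SMC6 and CHD9 had 6e-06, 1.7e-05 and 9.5e-05. The remaining genes described were ARID2, KDM3B, KMT2E and NCOA1. With 1 library there is no replicate check of these calls.

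The 2 condition lists held 38 chromatin genes for hypoxia and 18 for normoxia. Of the 45 in either list, 27 (60%) were in the hypoxia list alone, against 62.8% of 3308 genes, and 7 (15.6%) in the normoxia list alone, against 20.3%. Both shares were near the background. The 7 included ARID5B, BRD3, CHD6, KDM3B, KDM6B and SETD3, and of these ARID5B, CHD6, KDM6B and SETD3 had a peak in a hypoxia library. CBX5 and WAPL, absent from both normoxia libraries, were in the normoxia list. When the hypoxia list was cut to its 2285 peaks of smallest p, the balance turned: of 24 chromatin genes in either list, 6 (25%) were in it alone, against 36.3% of 1931 genes, and 17 (70.8%) in the normoxia list alone, against 57.1%. The sources used here do not say how the condition lists were made from the libraries.

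Of 89 further chromatin genes with other names, 39 had a peak in any list, and of all RefSeq coding genes 22% did. By library, 7 and 17 were called in hypoxia, 1 and 3 in normoxia and 20 in EU. The same libraries called 1258 and 2151, 139 and 897, and 2389 genes in all, so these counts cannot be told apart from list length. Of the 23 further chromatin genes with a peak in the 4 libraries, 3 (13.0%) were called in both hypoxia libraries and in neither normoxia library. This compares with 15.3% of all genes, and none showed the reverse. One of them was CTCF, the insulator protein that stops cohesin, with 2 and 3 peaks in the hypoxia libraries and 1 in EU, yet 0 in the hypoxia condition list and 1 in the normoxia list. The others were MTA2 (3 and 5, with 6 and 1 in the condition lists) and MBD2 (2 and 1, with 1 and 0), both subunits of NuRD. Of 12 cohesin partners and regulators, 7 had a peak in any list, beside the 22% of all coding genes. RAD21, the kleisin that closes the ring, had 5 in hypoxia replicate 2 and 1 in EU, and NIPBL, the loader, and PDS5A each had 7 in the hypoxia condition list alone. STAG2 had 2 in the normoxia condition list alone.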

How the data were processed

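The data were 7 peak lists: 5 of pulled-down libraries and 2 of conditions; the 5 inputs have no list of their own and were not used. Reads were aligned with STAR to hg38, per the submitters' processing notes; versions, the peak caller, its threshold, the annotation and strand use are not given in the sources used here. Column 5 of the deposited 12-column files was read from its values as the authors' p-value of each peak, and it served only to rank and describe peaks within a list. Some of the genes stand in the totals and are not reported here one by one. The members and lists were chosen with earlier results of these data known.

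Genes were counted as present with at least 1 peak. Peaks were compared by exon block on the same strand (at least 1 base). Gene spans came from RefSeq, the same build, which matched 4593 of 5000 names (91.9%) within 10 kb. Groups follow the sample titles. Tests were exact two-sided permutations over libraries; because 1 library had no such gene, log2(count + 1) replaced the planned log2 of the count. Named genes were those called in at least 3 libraries, in both libraries of 1 condition and neither of the other, the 2 of smallest p per family, the 5 with most peaks, 5 of EU alone, and 20 preset; any others were named after their values were seen. Scripts were tested on simulated data. Python 3.11.15, pandas 2.3.3, numpy 2.4.6 and scipy 1.17.1 were used.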

Additional observations from a re-analysis of the deposited data

How the results depend on the processing

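Over 11 results and 69 alternatives, 58 kept the direction and the side of the threshold or, for counts and shares, stayed near the reported value; the tested differences reported here had no p below the threshold, so this says little of their size. The difference in the share of genes reversed without normoxia replicate 1 (-0.251 points) and by the condition lists (-0.0212 points); leaving out each library gave -0.251 to 1.31. The 7 genes called in both hypoxia libraries and in neither normoxia library became 3 with the 50% of peaks of smallest p (13.0% beside 9.10% of all genes). They became 2 when all libraries were cut to 212 peaks (33.3% of members beside 3.13% of all genes), and 7 to 21 with a library left out. The 7, without normoxia replicate 1, were 18.4% beside 16.8% of all genes, and the 21, without hypoxia replicate 1, 60% beside 63.7%. The 10 of EU alone became 0 when shortened and 10 to 13 with a library left out. The 0 genes of the reverse pattern became 0 to 3, the 3 without normoxia replicate 1. These changed counts of EU alone and of the reverse pattern have no share over all genes beside them. They therefore cannot be told apart from a change that all genes share. Shared peaks fell to 18.9% (hypoxia replicate 1 by 2), 15.4% (normoxia replicate 2 by hypoxia replicate 2) and 12.1% (EU by hypoxia replicate 2) with the 50% of peaks of smallest p. The 27 genes of the hypoxia condition list alone became 6 with that list shortened (25% beside 36.3% of all genes), and those of the normoxia list alone went from 7 to 17 (70.8% beside 57.1%). The difference in member genes was 0.59 to 4.50 with a library left out, and with libraries cut to 212 peaks that in position was -0.208 and that in peaks per gene 0.333 (0.607 with narrow peaks left out).

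A fit that keeps the replicate block gave a difference in gene number of 2.54 (exact p = 0.5). Its difference in share was 0.530 (exact p = 1). The replicate differences of the 2 conditions correlated at -0.0978 over 3226 genes. This correlation cannot decide whether libraries of the same replicate number were paired. Normoxia replicate 1 called 139 genes and normoxia replicate 2 called 897, so the normoxia difference rests mostly on replicate 2. Genes that none of the 4 libraries called were also left out of the correlation. No blocked value could be had for peaks per gene or position, since normoxia replicate 1 had no peak, nor could these be computed without normoxia replicate 2. Position along exons was not run, as no exon table was used. Depth is unknown for every list, and list length limits every presence call.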
